A study of Mus musculus with 6 samples.

Results

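Antisense noncoding RNAs were measured in the hippocampus of 14-day-old C57BL/6 mice, and the 174 of them with measurable counts are described here. They are the rows of the deposited table of normalized read counts whose gene type is antisense and whose mean over the 6 libraries was at least 50, with Tsix left out. Members were thus chosen by their mean normalized count, which does not use the difference between the groups. They were 174 of 24935 rows and of 1393 antisense rows, of which a further 395 had a mean from 10 to under 50.

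The left hippocampus gave the RNA, 1 library for each of 3 mice in room air (air-exposed mice) and 3 mice in 85% oxygen (hyperoxia-exposed mice). Exposure ran from postnatal day (P) 2 until the tissue was taken at P14. Pups of both sexes were exposed together with their dams. The groups shared the strain, and the labels name no transgene or deleted gene in either. Each column of the table could be tied to a group but not to 1 mouse, so the libraries are called air 1 to 3 and hyperoxia 1 to 3 after their columns. Log2 fold changes are hyperoxia minus air, as the columns are named, on the scale of log2(normalized count + 1). In the authors' published tables, the mRNA changes of Grin1, Grin2b, Nav1, Cspg4 and Prox1 have the opposite sign to those from these columns. Their text and tables also differ in direction for some mRNAs. The labels do not tie the columns to mice, so they could not be used to check the column names. The authors' other deposited table, which holds their own fold changes, was not used for such a check. If the names of the groups were exchanged in the table, the sign of every difference below would turn, while its size and test would not.

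An antisense RNA is transcribed from the strand opposite to another gene and overlaps it or starts beside it. Such RNAs can act in cis on the sense gene, by recruiting chromatin modifiers, by transcription through its promoter or by pairing with its transcript, or they can act elsewhere or have no known role. The best studied member here is Kcnq1ot1, an imprinted nuclear RNA expressed from the paternal chromosome that keeps a cluster of neighbouring genes silent on that chromosome. In the brain, the antisense RNAs of the Dlx genes are known from interneuron development.

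How reads were assigned bears on the values below. Of the annotated antisense genes of at least 300 bases in GENCODE release M21 (GRCm38), 0 of 75 whose exonic bases lay for at least 99% under exons of the opposite strand had a row in the table. Of those with no such overlap 532 of 1176 (45.2%) had a row, of those with up to 25% overlap 541 of 892 (60.7%), and of those with above 75% and under 99% overlap 19 of 101 (18.8%). Among protein-coding genes, 4 of 33 (12.1%) at 99% or more had a row, against 72.2% of those with no overlap. Counting without strand, with reads that fall on exons of both genes dropped, would leave such a table, although the libraries were strand-specific. The sources used here do not give the strand setting of the counting. If strand was not used, reads of a member cannot be told from unspliced reads of a gene on the other strand. This holds where the remaining exonic bases of the member lie in introns of that gene.

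**Figure D1:**
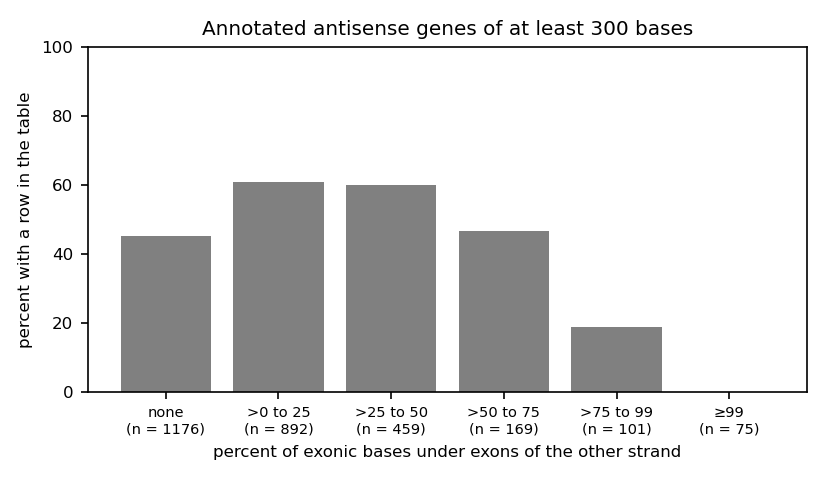
Percent of annotated antisense genes (at least 300 bases) that have a row in the table (vertical axis), by the percent of their exonic bases under exons of the other strand (horizontal axis, number of genes in parentheses). The share was 45.2% with no overlap and 0 of 75 genes had a row at 99% or more.

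Among the 174 members, the median share of exonic bases under opposite exons was 10.3% and the highest 77.9% (Gm16105), and 42 members had none. In all, 17 members overlapped another gene on their own strand. The median exonic length was 2278 bases and 31 members had a single exon block. In GENCODE release M21, 165 of the 174 were still classed as antisense.

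The libraries held 30384052 to 38746972 reads on genes. The median member had 75 to 104 reads per library, and single values ran from 16 reads to 6597 reads, so counting error adds to the spread between mice in the lower members. The pair differences between the hyperoxia libraries (chi-square per gene 18.64 to 58.97) were above those between the air libraries (7.82 to 12.76), and the largest of them were the pairs with hyperoxia 2. Markers of dentate granule cells were present in every library, and their summed count was lower in hyperoxia (11162.6 to 16402.7 against 18572.2 to 19409.7). The 5 oligodendrocyte markers were all lower and 4 of 5 neocortex markers were higher, whereas choroid plexus markers stood out in hyperoxia 3 (8101.9 against 444.9 to 1401.4). The part of these shifts in the results on antisense RNAs was not tested. In whole tissue, fewer cells of a type and less RNA per cell cannot be told apart.

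The sequences of the windows around the starts of 5 genes are given first. They were chosen because 4 of them are the starts of antisense RNAs that are named for their sense gene and were lower in hyperoxia, and the other holds the starts of both Tmem147 and its antisense RNA, which lie 39 bases apart. Each runs 5′ to 3′ on the strand of the named gene from 250 bases before its RefSeq start to 50 bases after it (GRCm38.p6). Capitals mark matches to 3 motifs searched on both strands. The CCAAT box was searched as the letters of its name, the TATA box as TATAAA and the cAMP response element as TGACGTCA. No window printed here held more than 1 of these motifs.
Kcnq1ot1, chr7:143296498-143296797, minus strand: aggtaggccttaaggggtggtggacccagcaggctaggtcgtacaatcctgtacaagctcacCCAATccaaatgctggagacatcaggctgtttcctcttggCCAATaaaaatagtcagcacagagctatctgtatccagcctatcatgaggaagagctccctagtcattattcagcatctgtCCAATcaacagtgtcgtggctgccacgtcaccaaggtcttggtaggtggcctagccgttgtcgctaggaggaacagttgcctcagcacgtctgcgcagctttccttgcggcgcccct
Grin1os, chr2:25291008-25291307, plus strand: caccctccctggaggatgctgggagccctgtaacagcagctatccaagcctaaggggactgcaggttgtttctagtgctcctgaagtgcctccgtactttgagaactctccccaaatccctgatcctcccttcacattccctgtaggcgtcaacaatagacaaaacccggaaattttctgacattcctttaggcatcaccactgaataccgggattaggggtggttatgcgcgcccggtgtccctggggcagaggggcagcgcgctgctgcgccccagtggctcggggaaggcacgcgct
Atcayos, chr10:81194441-81194740, plus strand: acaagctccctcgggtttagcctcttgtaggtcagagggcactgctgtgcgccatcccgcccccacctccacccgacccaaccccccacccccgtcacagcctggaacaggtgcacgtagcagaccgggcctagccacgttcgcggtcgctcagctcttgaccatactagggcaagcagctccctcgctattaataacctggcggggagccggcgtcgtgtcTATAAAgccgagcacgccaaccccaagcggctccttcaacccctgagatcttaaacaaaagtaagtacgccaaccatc
Prkag2os1, chr5:24902319-24902618, plus strand: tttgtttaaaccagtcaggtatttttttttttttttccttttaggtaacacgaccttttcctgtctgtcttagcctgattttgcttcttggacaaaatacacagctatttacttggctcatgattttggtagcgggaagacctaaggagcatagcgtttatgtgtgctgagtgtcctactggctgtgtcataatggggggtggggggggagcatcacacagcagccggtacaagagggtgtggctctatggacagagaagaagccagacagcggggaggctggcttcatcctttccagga
Tmem147, chr7:30729485-30729784, minus strand: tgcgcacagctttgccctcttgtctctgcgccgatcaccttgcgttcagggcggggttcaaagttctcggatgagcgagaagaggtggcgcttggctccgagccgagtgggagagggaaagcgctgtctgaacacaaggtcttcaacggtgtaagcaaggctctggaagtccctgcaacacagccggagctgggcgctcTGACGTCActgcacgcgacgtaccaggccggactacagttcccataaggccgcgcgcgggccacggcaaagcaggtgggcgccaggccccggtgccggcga

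The Kcnq1ot1 window held 3 CCAAT boxes, the Atcayos window 1 TATA box and the Tmem147 window 1 cAMP response element, and the other windows held none of the 3 motifs. RefSeq windows were at hand for 75 of the 174 members. A CCAAT box was in 34.5% of the 87 member windows and in 37.4% of all 32851 windows, a TATA box in 5.75% against 13.6%, and a cAMP response element in 1.15% against 1.79%. The median GC content was 59.3% in member windows and 52.7% in all windows. A match is a description of the letters and not a site of binding.

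More members were lower than higher in the hyperoxia columns. Of the 174 members, 49 were called lower (28.2%) and 14 higher (8.05%) by limma at an adjusted p below 0.05, and 111 were not called. Over all 17778 rows tested, 30.5% were called, 15.6% lower and 14.9% higher. Among all 14099 rows with a mean of at least 50 the shares were 18.2% lower and 17.0% higher. The median log2 fold change of the members was −0.22, beside −0.01 over all rows tested, and 125 of the 174 lay below 0. In 70 members every hyperoxia library lay below every air library and in 19 above, where over all rows tested this held for 23.8% and 22.3%. The counts of calls moved with single libraries. Without 1 of the air libraries 30 to 33 members were called lower and 4 higher, and without hyperoxia 1, 2 or 3 the lower calls were 39, 56 and 44 and the higher calls 5, 21 and 7. Quantile normalization left 9 higher calls. The median of the members was −0.18 to −0.26 under all settings tried.

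**Figure D2:**
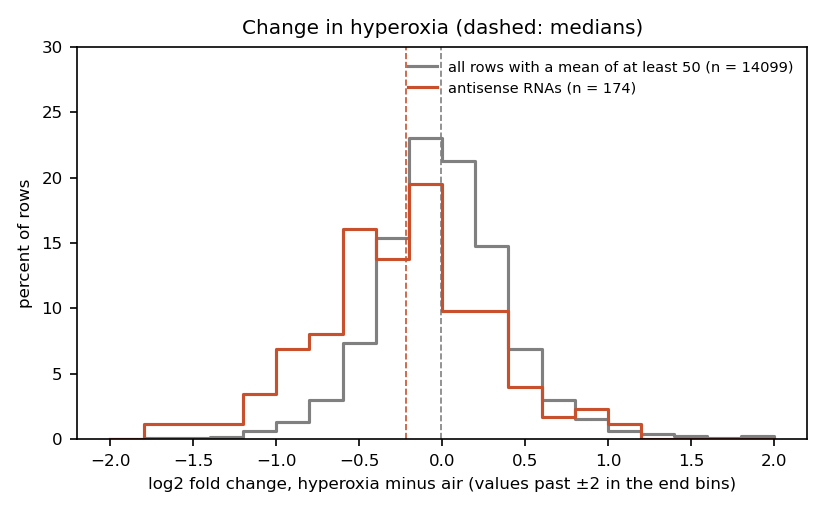
Percent of rows (vertical axis) by log2 fold change, hyperoxia minus air (horizontal axis), for the 174 antisense RNAs and for all 14099 rows with a mean of at least 50, with dashed lines at the medians. The antisense RNAs lie further to the left, with medians of −0.22 and −0.01.

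Each hyperoxia library showed this shift. In hyperoxia 1, 2 and 3, respectively 114, 125 and 120 of the 174 members were below their mean in air. In air 1, 2 and 3, which make up that mean, the numbers were 88, 91 and 88. The summed normalized count of the members was 33675.1, 33510.3 and 34177.0 in the air libraries and 32228.3, 28901.7 and 32605.6 in the hyperoxia libraries. The 3 air values lay above the 3 hyperoxia values.

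The larger noncoding classes with a mean of at least 50 were also called lower more often than higher, but not all classes were. Of 246 lincRNAs, which are long intergenic noncoding RNAs, 62 were lower and 21 higher (median −0.16). Of 137 processed transcripts 33 were lower and 13 higher (median −0.22). Of 163 rows of gene type TEC 47 were lower (28.8%) and 22 higher (median −0.15), and of 81 processed pseudogenes 12 were lower and 6 higher (median −0.17). Of 22 transcribed unprocessed pseudogenes 3 were lower and 4 higher (median 0.03), and of 17 unprocessed pseudogenes 0 were lower and 1 higher. Protein-coding genes were evenly split, with 2336 lower and 2302 higher of 13176 (median 0.00). A test of the difference between these classes was not made. Antisense rows below the threshold, with a mean from 10 to under 50, had 26 lower and 12 higher of 395 (median −0.13).

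The counts of calls were then split by the position of the member relative to the sense gene. Of the 53 members that lie wholly inside their partner gene on the other strand, 21 were lower and 1 higher (median −0.32). Of 53 that overlap the partner head to head, with the 5′ ends inside each other, 16 were lower and 7 higher (median −0.25). Of 37 that overlap it tail to tail, 7 were lower and 5 higher (median 0.02). The 15 members that span the partner had 1 lower and 0 higher (median −0.22). The 13 members without a partner had 3 lower and 1 higher, with the lowest median of these classes (−0.42), and 12 of them lay below 0.

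**Figure D3:**
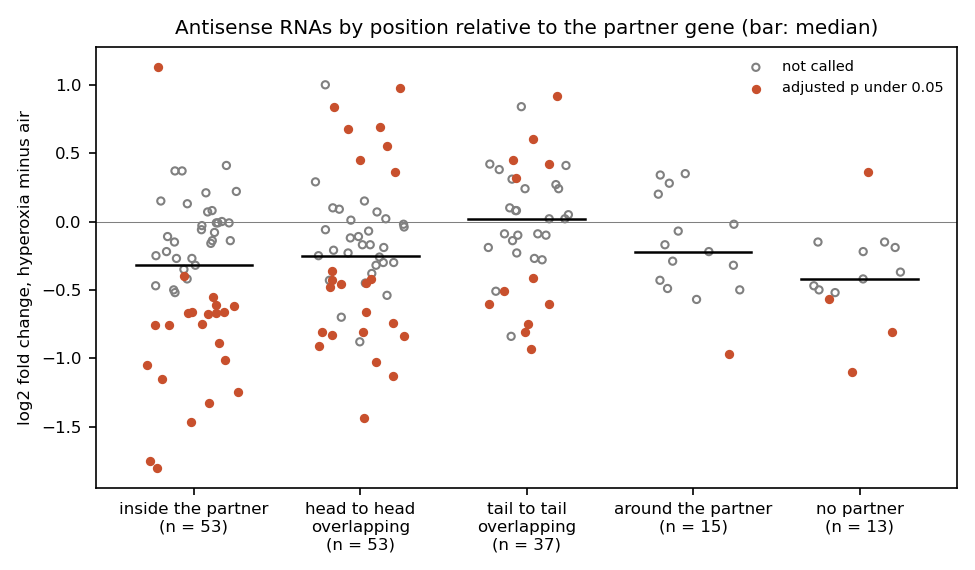
Log2 fold change, hyperoxia minus air (vertical axis), of each antisense RNA by its position relative to the partner gene (horizontal axis, n in parentheses), with filled points for an adjusted p below 0.05 and a bar at the median. Members inside the partner have a median of −0.32 and 21 lower calls, tail-to-tail members a median of 0.02 and members without a partner a median of −0.42. The 3 members that lie beside their partner without overlap are not drawn.

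The members were also split by where their reads could fall. For 85 members most exonic bases that are free of opposite exons lay in introns of a gene on the other strand, and 31 of these were lower and 3 higher (median −0.27). For the other 89 members most free bases lay outside such genes, and 18 were lower and 11 higher (median −0.19). Over such introns unspliced RNA of the sense gene can add reads where strand was not used. The difference between these position classes was not tested.

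Of the 27 members named for their sense gene, 8 were lower (29.6%) and 0 higher. Of the 27 sense genes 6 were lower (22.2%) and 2 higher (7.41%), beside 15.6% and 14.9% over all rows tested. The 8 were Kcnq1ot1, Grin1os, Emx2os, Atcayos, Tmem147os, Prox1os, Zbtb11os1 and Prkag2os1, and in each of them the 3 hyperoxia libraries lay below the 3 air libraries.

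**Figure D4:**
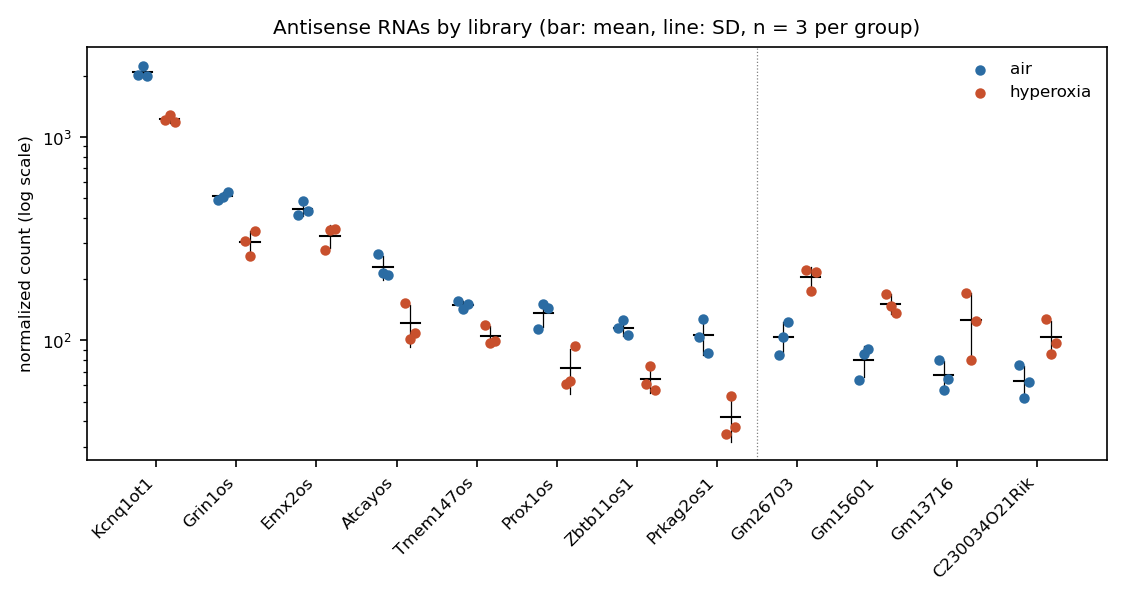
Normalized count (log axis) in each library for the 8 antisense RNAs named for a sense gene that were lower in hyperoxia and, right of the dotted line, the 4 members with the largest rise among those whose groups do not overlap. Points are libraries, bars means and lines SD (n = 3 per group). Air and hyperoxia points do not overlap in any of the 8, and the other 4 were chosen for not overlapping.

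Kcnq1ot1 had the third highest count of all members and the smallest adjusted p of the 8. It was at 2020.1, 2239.7 and 1999 in air and at 1206, 1283 and 1191 in hyperoxia. All hyperoxia libraries lay close together and far below air (2086 ± 133 against 1227 ± 49.2, SD, n = 3). The log2 fold change was −0.76 ± 0.08 (SE, adjusted p = 4e-04). Kcnq1ot1 is annotated as 1 unspliced stretch, chr7:143203458-143296549 on the minus strand, with 98.8% of its 93092 bases in introns of Kcnq1. Kcnq1 itself, a potassium channel gene, had low counts of 32.0, 26.5 and 38.0 in air and 46.9, 65.7 and 40.5 in hyperoxia. Its groups did not overlap, and its log2 fold change of 0.64 ± 0.25 did not pass the test (adjusted p = 0.078), but it was called after removal of the length and GC trend (0.75). The ratio of Kcnq1ot1 to Kcnq1 fell by 1.40 on the log2 scale (SE 0.21, adjusted p = 0.0043).

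Grin1os lies inside Grin1, the gene of the obligatory NMDA receptor subunit, at chr2:25291220-25298925 on the plus strand. Its counts were 491, 508 and 537 in air and 309, 260.4 and 344 in hyperoxia. The groups were well apart, with a log2 fold change of −0.76 ± 0.12 (adjusted p = 0.0019). Grin1 was also lower in the hyperoxia columns, from 21380, 19397 and 18999 to 13689.9, 13217 and 12895 (−0.59 ± 0.07, adjusted p = 0.00098). The ratio of the pair moved by −0.17 ± 0.17 and did not pass the test (adjusted p = 0.54). No base of Grin1os lay outside Grin1, with 45.2% of its exonic bases under Grin1-strand exons and 54.8% in introns.

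Emx2os, at chr19:59425104-59458635 on the minus strand, starts 263 bases from the start of Emx2, a homeobox gene required for the growth of the hippocampus. Emx2os was at 415, 486 and 432 in air and at 278, 349.8 and 352 in hyperoxia (−0.45 ± 0.12, adjusted p = 0.020). Emx2 fell from 1104, 1112 and 1125 to 598, 658 and 781 (−0.72 ± 0.10, adjusted p = 0.0014). In this pair 94.7% of the exonic bases of the antisense RNA lay outside any gene of the other strand, and the ratio did not pass the test (0.27 ± 0.16, adjusted p = 0.27). The call of Emx2os was lost without air 2, air 3 or hyperoxia 1, with log2 fold changes of −0.51 to −0.34 when single libraries were left out.

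Prox1os, at chr1:190170296-190217276 on the plus strand, starts 418 bases from Prox1, a homeobox gene that marks granule cells of the dentate gyrus. It was at 114, 150.6 and 144 in air and at 61.0, 63.4 and 93.6 in hyperoxia (−0.91 ± 0.20, adjusted p = 0.0083). Hyperoxia 3 was the highest of its group, as it was for Prox1 (8533 beside 5299 and 5181, against 7919 to 8665 in air). The log2 fold change of Prox1 was −0.42 ± 0.17 (adjusted p = 0.081), it was called after removal of the length and GC trend (−0.67), and 4 of the 5 dentate granule cell markers were called lower. Whether Prox1os moved with the amount of granule cell RNA was not tested.

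In the other 4 pairs the sense gene was not called. Atcayos overlaps the end of Atcay, which encodes the neuronal protein caytaxin, and was at 265, 215 and 208 in air and 153, 102 and 108 in hyperoxia (−0.93 ± 0.17, adjusted p = 0.0044). Its place is chr10:81194609-81210877 on the plus strand. Prkag2os1, at chr5:24902569-24906850 on the plus strand, lies inside Prkag2, the gene of a regulatory subunit of AMP-activated kinase, and was at 104, 127 and 86.2 in air and 34.5, 53.2 and 37.6 in hyperoxia (−1.33 ± 0.22, adjusted p = 0.0026). Both had no overlap between the groups, and Atcay (0.09 ± 0.08) and Prkag2 (−0.19 ± 0.07, adjusted p = 0.074) were not called, although Prkag2 was after removal of the length and GC trend (−0.16). The ratio to the sense gene fell by 1.02 (SE 0.19, adjusted p = 0.0059) for Atcayos and fell by 1.14 (SE 0.23, adjusted p = 0.0064) for Prkag2os1.

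Tmem147os and Zbtb11os1 start close to their sense genes. Tmem147os (chr7:30729579-30745929, plus strand), at 39 bases from the start of a gene for an endoplasmic reticulum membrane protein, was at 155, 142 and 151 in air and 119, 97.4 and 99.4 in hyperoxia (−0.51 ± 0.14, adjusted p = 0.020). Zbtb11os1 (chr16:55973268-55974617, minus strand), at 734 bases from the start of a zinc finger gene, was at 115, 126 and 106 in air and 61.0, 74.7 and 57.0 in hyperoxia (−0.84 ± 0.16, adjusted p = 0.0051). The ratios fell by 0.70 (SE 0.19, adjusted p = 0.029) and fell by 0.94 (SE 0.25, adjusted p = 0.028). The fold changes of the sense genes were 0.19 ± 0.09 (Tmem147, adjusted p = 0.15) and 0.10 ± 0.14 (Zbtb11, adjusted p = 0.61). Both ratios were less firm than those above. The Tmem147os ratio lost its call without any of the air libraries or hyperoxia 3 (−0.81 to −0.55), and that of Zbtb11os1 without any library but hyperoxia 2 (−1.23 to −0.75). Both were also lost without the variance trend, and that of Zbtb11os1 after removal of the length and GC trend. The call of Tmem147os itself was lost without any of the air libraries (log2 fold change −0.60 to −0.45 with single libraries left out) and after removal of the length and GC trend, where Tmem147 was called higher (0.38).

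**Figure D5:**
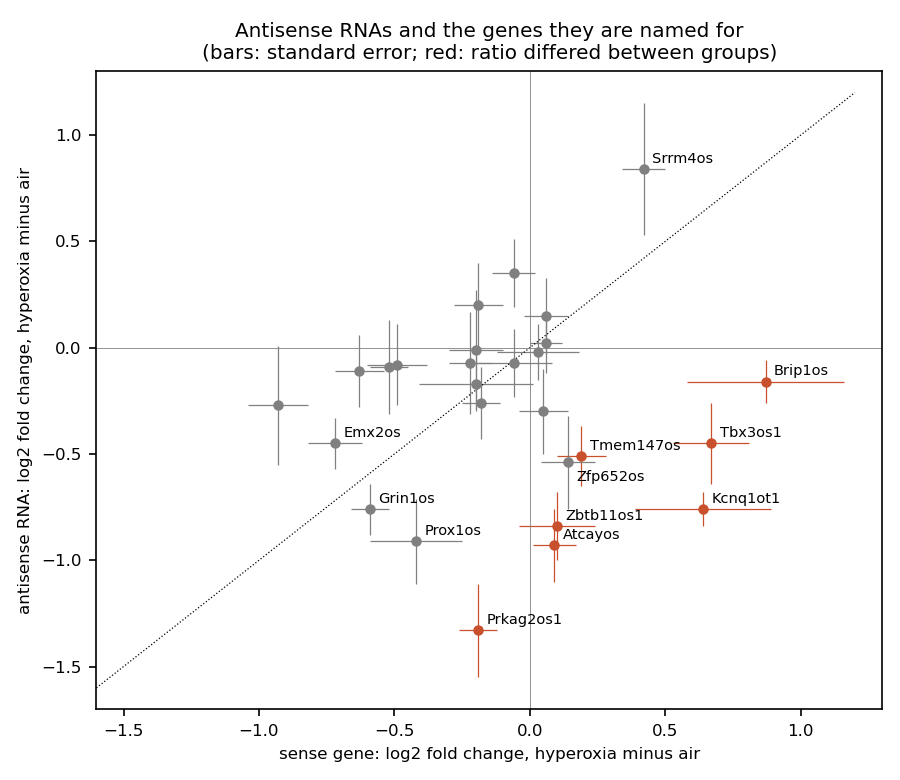
Log2 fold change, hyperoxia minus air, of 27 antisense RNAs (vertical axis) against the sense gene each is named for (horizontal axis), with standard errors. Red points are the 7 pairs whose ratio differed between the groups (adjusted p below 0.05), all below the dotted line of equal change.

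A further 2 pairs differed in ratio although the antisense RNA was not called. Tbx3os1 was at 78.2, 62.1 and 72.9 in air and 56.6, 43.0 and 56.0 in hyperoxia (−0.45 ± 0.19, adjusted p = 0.097), while Tbx3, a T-box transcription factor, rose from between 109.9 and 128 to between 164 and 213 (0.67 ± 0.14, adjusted p = 0.0068). Their ratio fell by 1.12 (SE 0.24, adjusted p = 0.0076), a call that was lost without air 1 (−1.28 to −0.91 with single libraries left out). Brip1os, which starts 177 bases from the DNA helicase gene Brip1, moved by −0.16 ± 0.10 and the ratio fell by 1.03 (SE 0.18, adjusted p = 0.0056), where Brip1 had counts of only 9.24 to 14.1 in air and 20.4 to 24.1 in hyperoxia. Brip1os itself was called lower after removal of the length and GC trend.

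The remaining 17 members with a named sense gene gave no call in the antisense RNA or the ratio in the main fit. They included Dlx6os1 and Dlx1as, from the interneuron loci (−0.17 ± 0.13 and 0.20 ± 0.20). Dlx6os1 was called lower after removal of the length and GC trend, and Sp3os and Zfp652os were called lower without hyperoxia 2. St8sia3os was called higher by limma without the variance trend and after removal of the length and GC trend. The value farthest from 0 was that of Srrm4os, antisense to the gene of a neuronal splicing factor, at 48.0, 73.3 and 51.3 in air and 108, 62.3 and 156 in hyperoxia. Its groups overlapped through hyperoxia 2 (0.84 ± 0.31, adjusted p = 0.068), and it was called without that library (1.19) and, with all libraries, by edgeR and DESeq2 on the recovered reads (0.93 by both). Srrm4 itself was higher (0.42 ± 0.08, adjusted p = 0.0046). For 5 of the 17, Chn1os3, Fbxl12os, Mypopos, Rab26os and, in the other direction, Srrm4os, the sense gene was called and the antisense RNA was not, and none of these ratios passed the test.

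Over all members, the partner gene could be tested in 148 pairs, 27 by name and 121 by position. The 146 partner genes had 30 lower (20.5%) and 21 higher (14.4%) calls (median 0.01). Over all rows tested the shares were 15.6% and 14.9%, and over rows with a mean of at least 50 they were 18.2% and 17.0%. Of the 43 pairs with a lower antisense RNA, the partner was not called in 28, lower in 12 and higher in 3. Of the 12 pairs with a higher antisense RNA, the partner was not called in 8, higher in 3 and lower in 1. Where the antisense RNA was not called, the partner was not called in 61, lower in 17 and higher in 15. Whether the calls of antisense RNA and partner go together was not tested. The ratio of antisense RNA to partner was lower in 30 of the 148 pairs and higher in 3, where 12.8% of all 499 antisense pairs tested were called (10% lower and 2.81% higher). The 148 pairs are a part of the 499. In the others the antisense RNA had a mean from 10 to under 50, so these shares come from unlike count levels. Of antisense rows in that range 6.58% were called lower, beside 28.2% of the members. In 25 of the 30 the antisense RNA itself was lower, and in 20 the partner was not called. Without 1 library the number of called ratios was 13, 19 and 19 (air 1 to 3) and 22, 59 and 24 (hyperoxia 1 to 3), and 10 of the 33 held under all 11 alternatives. A further 2, those of Kcnq1ot1 and Brip1os, held under the 10 that could be run for them.

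The 3 pairs with opposite calls and a lower antisense RNA were found after the values were seen. Gm11696, which starts 823 bases from Gna13, the gene of a heterotrimeric G protein subunit, was at 145, 114 and 112 in air and 61.0, 75.9 and 72.4 in hyperoxia (−0.81 ± 0.17, adjusted p = 0.0064). Gna13 rose from 1217, 1316 and 1276 to 2014, 2046 and 2191 (0.71 ± 0.07, adjusted p = 0.00041). Both genes had no overlap between the groups, and the ratio fell by 1.53 (SE 0.20, adjusted p = 0.0017), the smallest adjusted p of the member pairs. In Gm2415 and Itga9, an integrin subunit, the values were −0.60 ± 0.14 and 0.49 ± 0.10. In 1500015A07Rik and Afap1l1 they were −0.51 ± 0.14 and 0.35 ± 0.10, and this ratio lost its call without air 1. The call of 1500015A07Rik was lost without any of the air libraries (−0.56 to −0.44 with single libraries left out), that of Afap1l1 without air 1, air 2, hyperoxia 1 or hyperoxia 3 (0.26 to 0.41), and that of Gm2415 after removal of the length and GC trend. That of Afap1l1 was also lost without the variance trend.

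Of the 12 members with the largest falls, 8 lay inside their partner gene, Prkag2os1 among them. Gm14330, in an intron of Grin2b, the gene of another NMDA receptor subunit, was at 83.8, 94.6 and 74.95 in air and at 23.0, 36.2 and 15.4 in hyperoxia (−1.80 ± 0.29, adjusted p = 0.0023). All of its 455 exonic bases lie in Grin2b introns. Grin2b varied widely in hyperoxia (22141, 12735 and 25181 against 14252 to 16553 in air), and its groups overlapped (0.31 ± 0.21, adjusted p = 0.29). The ratio fell by 2.11 (SE 0.42, adjusted p = 0.0068).

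Gm16105, inside Celf5, the gene of a neuronal RNA-binding protein, fell from 144, 102 and 119 to 39.8, 27.2 and 39.6 (−1.75 ± 0.21, adjusted p = 0.00081). Of its bases 77.9% lie under exons of the other strand, and 154 are free of them. Celf5 fell less (−0.64 ± 0.09, adjusted p = 0.0012), and the ratio fell by 1.12 (SE 0.21, adjusted p = 0.0059). Gm26592, inside the dendritic adhesion gene Icam5, fell from 131, 112 and 129 to 48.6, 52.1 and 54.1 (−1.25 ± 0.15, adjusted p = 0.00083), beside −0.63 ± 0.07 for Icam5. Gm15624, inside Dctn1, which encodes a dynactin subunit, had a log2 fold change of −1.15 ± 0.14 (adjusted p = 0.00073), beside −0.20 ± 0.07 (adjusted p = 0.048) for Dctn1. The ratios of these 3 RNAs to their partners were all called lower. That of Gm26592 lost its call without any library but hyperoxia 2 (−0.67 to −0.57). It was also lost with a pseudocount of 5, without the variance trend and after removal of the length and GC trend. The small fall of Dctn1 lost its call under 11 of the 16 alternatives. Among these were the fits without any library but hyperoxia 2, TMM scaling, quantile normalization and edgeR.

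Gm16172, inside the membrane channel gene Tmem63b, and RP24-244M17.1, inside the neuronal transcription factor gene Myt1l, had log2 fold changes of −1.05 ± 0.23 and −1.01 ± 0.25, with called ratios and partners that were not called. For 4930556I23Rik, whose partner 2010300C02Rik was at 16569 to 17211 in air and 8747 to 11269 in hyperoxia, the fall was 1.47 (SE 0.31) and the ratio was not called (adjusted p = 0.12). RP24-244M17.1 lost its call without air 1, air 2 or hyperoxia 1 (−1.28 to −0.78 with single libraries left out), and the ratio of Gm16172 lost its call without any air library or hyperoxia 1 (−0.99 to −0.60). The ratio of Gm16172 was also lost without the variance trend and after removal of the length and GC trend.

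The other 4 of the 12 largest falls did not lie inside a partner gene. Gm27003, which starts 421 bases from Gabpb1, a subunit gene of the GA-binding protein, was at 80.1, 77.3 and 81.1 in air and 33.6, 27.2 and 26.1 in hyperoxia (−1.44 ± 0.19, adjusted p = 0.0010). The air libraries were nearly equal and the hyperoxia libraries were all far below them. Gabpb1 was not called (−0.15 ± 0.08, adjusted p = 0.17) and the ratio fell by 1.28 (SE 0.22, adjusted p = 0.0056). A230083G16Rik, head to head with the parathymosin gene Ptms, fell by 1.13 (SE 0.14, adjusted p = 0.00098), and E030013I19Rik, head to head with the integrin gene Itga8, fell by 1.03 (SE 0.23, adjusted p = 0.010). Ptms and Itga8 fell as well (−0.47 ± 0.11 and −0.54 ± 0.11). The call of Ptms was lost without air 1 or hyperoxia 1 (−0.41 and −0.40) and with quantile normalization. Gm28424, with no gene opposite to its exons, was at 91.4, 77.3 and 77.0 in air and 42.4, 31.7 and 39.6 in hyperoxia (−1.10 ± 0.19, adjusted p = 0.0030).

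With the columns as named, rises were fewer, and the highest was 1.13 where the deepest fall was −1.80. Gm26703, which starts within Sparcl1, the gene of a matricellular protein secreted by astrocytes, was at 84.8, 104 and 123 in air and 222, 175 and 216 in hyperoxia (0.98 ± 0.17, adjusted p = 0.0029). Sparcl1 was not called (−0.11 ± 0.09, adjusted p = 0.41), and the ratio rose by 1.08 (SE 0.20, adjusted p = 0.0063). Gm15601, tail to tail with the phospholipase gene Ddhd1, was at 64.0, 85.5 and 90.3 in air and 169.7, 148 and 136 in hyperoxia (0.92 ± 0.17, adjusted p = 0.0042). Its ratio to Ddhd1 rose by 0.74 (SE 0.20, adjusted p = 0.032). This call was lost without any air library or hyperoxia 1 (0.60 to 0.89) and without the variance trend. These 2 RNAs were the only higher members that were called under all 16 alternatives tried.

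Gt(ROSA)26Sor, the noncoding gene of the locus widely used to insert transgenes, was at 113, 127 and 122 in air and 150.3, 174 and 161 in hyperoxia (0.42 ± 0.13, adjusted p = 0.033). Its partner Thumpd3, a tRNA methyltransferase gene with which it ends tail to tail, fell from between 886 and 959.6 to between 675 and 771 (−0.37 ± 0.08, adjusted p = 0.011). It was the 1 pair with a higher antisense RNA and a lower partner, and the ratio rose by 0.78 (SE 0.17, adjusted p = 0.0086). The call of Gt(ROSA)26Sor was lost with quantile normalization and when any single library was left out (0.36 to 0.47). That of Thumpd3 was lost without air 2 (−0.33), and that of the ratio without air 1 (0.71 to 0.85) and without the variance trend.

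In 3 pairs both genes were higher. Gm13716 starts 265 bases from Lrrc55, which encodes an auxiliary subunit of large-conductance potassium channels, and was at 80.1, 57.0 and 64.7 in air and 171, 80.4 and 125 in hyperoxia (0.84 ± 0.26, adjusted p = 0.036). The lowest hyperoxia library, hyperoxia 2, was barely above the highest air library. Lrrc55 rose by 0.40 (SE 0.12, adjusted p = 0.030). Among the fits that left out 1 library, Gm13716 and 9630001P10Rik held their calls only without hyperoxia 2, and Lrrc55 only without hyperoxia 2 or 3. The ranges over these fits were 0.58 to 1.12, 0.53 to 0.87 and 0.30 to 0.53, respectively. The values of 9630001P10Rik and Fam184b were 0.68 ± 0.21 and 0.60 ± 0.12, and those of Gm16185 and Slc25a36, a mitochondrial carrier gene, 1.13 ± 0.32 and 0.27 ± 0.07. Gm16185 was the called member whose groups overlapped, with hyperoxia 2 at 121 and the others at 265 and 335, against 84.5 to 121 in air. Its call was lost without air 1, air 2, hyperoxia 1 or hyperoxia 3 (0.83 to 1.56), and that of Slc25a36 without any library but hyperoxia 2 (0.22 to 0.31). Both calls were also lost without the variance trend, and that of Slc25a36 after removal of the length and GC trend.

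Among the other 7 of the 12 largest rises, 5 had a partner that was not called, 1 had a partner with too few counts to test and 1 had no partner. C230034O21Rik, head to head with the protocadherin gene Fat4, rose by 0.69 (SE 0.20, adjusted p = 0.029). A730056A06Rik was at 77.2, 72.3 and 79.1 in air and 118, 120.0 and 109 in hyperoxia (0.60 ± 0.14, adjusted p = 0.011). The others were Gm12709 (0.55 ± 0.18), 9430041J12Rik (0.45 ± 0.15), 4833422C13Rik (0.45 ± 0.13) and A830036E02Rik (0.36 ± 0.11). The last 3 overlap their partners Ttyh1, Ssbp2 and Krt12, respectively. Gm14286, which has no partner, had a value of 0.36 ± 0.12. Of these 7, A730056A06Rik lost its call without air 2 alone (0.56 to 0.64 with single libraries left out), and the others lost theirs without 3 or more of the libraries, C230034O21Rik without air 2, air 3 or hyperoxia 1 (0.54 to 0.83).

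The 5 members with the highest counts went different ways, with Kcnq1ot1 and 6330403L08Rik lower, A830036E02Rik higher and the others not called. B230334C09Rik had the highest mean count (4490.2, or 589 per 1000 free exonic bases) and was at 3709, 3629 and 4136 in air and 5802, 3298 and 6368 in hyperoxia. Hyperoxia 2 lay below every air library and the other hyperoxia libraries above, and it did not pass the test (0.38 ± 0.20, adjusted p = 0.19), and without hyperoxia 2 it was called (0.67). 4933431E20Rik was at 2186 to 2353 in air and 2253 to 2374 in hyperoxia (0.02 ± 0.07). 6330403L08Rik, head to head with the growth factor gene Pdgfa, fell from 1158, 1186 and 1148 to 788, 936 and 814 (−0.46 ± 0.09, adjusted p = 0.0042). Per 1000 free exonic bases, Kcnq1ot1 was far lower than these, at 18.0 beside 213 for 6330403L08Rik.

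Just above the threshold of 50 lay 4930481A15Rik (mean 50.1, log2 fold change −0.43), Gm44623 (50.3, −0.14) and 4930471C04Rik (50.7, −0.52). Just below it lay Mccc1os (49.7, 0.03), Zeb2os (49.7, −1.01) and 9630028B13Rik (48.8, 0.32).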

How the data were processed

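The authors made strand-specific polyA libraries, and the submitters' processing notes name FastQC, STAR 2.5.3a, HTSeq and DESeq2. The sources used here do not give their roles, their settings or the genome build. In the deposited table the authors give a signal, which is reads per gene scaled by 1 size factor for each library. Divided by the smallest step of its library, 100% of values came out whole (tolerance 0.01), which gave back the reads for count tests. The authors' other deposited table holds their own fold changes, standard errors and p-values for the same groups and was not used.

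Log2(value + 1) was tested with limma 3.58.1 in R 4.3.3, its prior variance following the mean level, with Benjamini-Hochberg adjustment over the 17778 rows with a mean of at least 10 and a threshold of 0.05. This scale understates the change of low counts. The ratio of antisense RNA to partner was tested in the same way on the difference of the log2 values over 499 pairs. The partner is the gene in the member's name or, failing that, the gene on the opposite strand that overlaps it most. As alternatives the pseudocount was 0.5 or 5, the filter was dropped or raised to a mean of 50, and the fits used TMM scaling, quantile normalization, limma without the trend, edgeR 4.0.16 and DESeq2 1.42.0 on the recovered reads, removal of length and GC trends (mgcv 1.9.3), members with a mean of at least 100, and each library left out. The fits were tested on simulated data. Gene positions were those of GENCODE release M21 (GRCm38), which held 99.7% of the gene identifiers.

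The members and lists were chosen with earlier results of these data known. Named are all members with a sense gene in their name, up to 12 called members with the largest rise and the largest fall among those whose groups do not overlap, the 5 highest, and the 3 antisense rows on either side of the threshold. Each p-value sets the difference between the groups against the spread between 3 mice per group, which limma draws toward its prior variance. The labels name no litter or dam, so effects of litter could not be told apart from exposure. With 3 libraries per group, no test for an outlying library was made.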

Additional observations from a re-analysis of the deposited data

How the results depend on the processing

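The number of members called higher was 14 and ranged from 4 to 21 when single libraries were left out. It was 9 with quantile normalization and 9 among members with a mean of at least 100. The number called lower was 49, ranged from 30 to 56 without single libraries, and was 24 among members with a mean of at least 100, which are fewer by construction. The number of partner genes called ranged from 27 to 81 and the number of called ratios from 13 to 59 without single libraries, and the ratios fell to 16 without the variance trend. The recovered reads gave 16 higher and 48 lower calls with edgeR and 14 and 47 with DESeq2. Of the 49 lower members 26 were called under all 16 alternatives, and of the 14 higher members 2, while none was called in the other direction and 29 uncalled members were called under at least 1. The cause of these losses was not tested. No paired analysis was possible because the columns carry numbers from 1 to 3 within each group that are not animal numbers, and the labels number the mice 1 to 6 without pairing them.

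The sign turned for some genes that were not called. After removal of the length and GC trend the log2 fold change was −0.01 for Rab10os, 0.11 for Kcnmb4os2, 0.07 for Phf2os1, 0.12 for Zfp335os, 0.09 for Rab26os, −0.11 for Mccc1os, −0.09 for 4933431E20Rik, −0.10 for Sp3, −0.15 for Zfp652, −0.04 for Zbtb11, −0.03 for Pcsk2, −0.10 for Ddhd1, −0.08 for Fat4, −0.01 for Ttyh1, −0.02 for Grin2b and −0.06 for Myt1l. With quantile normalization it was −0.03 for Kcnmb4 and 0.21 for Sparcl1, and on the recovered reads 0.10 for Sorbs2os by both count tests. With single libraries left out, the range crossed 0 for 4933431E20Rik (−0.01 to 0.04), Chn1os3 (−0.30 to 0.16), Dlx6 (−0.42 to 0.01), Fbxl12os (−0.24 to 0.05), Kcnmb4 (−0.01 to 0.10), Kcnmb4os2 (−0.09 to 0.03), Mccc1os (−0.12 to 0.29), Mypopos (−0.49 to 0.06), Pcsk2 (−0.01 to 0.11), Rab10os (−0.11 to 0.13), Sorbs2os (−0.29 to 0.32), Sp3 (−0.04 to 0.11), St8sia3 (−0.10 to 0.02), Ttyh1 (−0.08 to 0.10), Zbtb11 (−0.01 to 0.27), Zfp335os (−0.30 to 0.15), Zfp85 (−0.13 to 0.01) and Zfp85os (−0.20 to 0.03). A member that was not called is not shown to be unchanged, since both the reads per member and library (16 to 6597) and the spread between mice limit what could be detected.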
